A study of Mus musculus with 6 samples.

Results

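The genes described here encode the antigen presentation machinery of MHC class II: the invariant chain Cd74, the coactivator Ciita, the classical chains H2-Aa, H2-Ab1 and H2-Eb1, the peptide exchange chains H2-DMa and H2-DMb1, and their inhibitors H2-Oa and H2-Ob. They were measured in whole lungs of male mice of the BALB/c strain, which entered the experiment at an age of 10 weeks, with 1 oligonucleotide array for each mouse. The control group of 3 mice was kept in normal air for 3 weeks, and the hydrogen group of 3 mice was kept for 3 weeks in air that held 2% molecular hydrogen. The members were taken by gene symbol, as every probe set that the platform annotation ties to exactly 1 of the 9 symbols. This gave 17 of the 45037 probe sets, and 9 of the 17097 genes that the array measures. The rule itself uses gene symbols and no measured value. Where a single value per gene was needed, the probe set with the highest mean over the 6 arrays stood for the gene.

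MHC class II molecules are pairs of an alpha and a beta chain that carry peptides from ingested proteins to the surface of antigen-presenting cells, where CD4 T cells read them. The chains are built in the endoplasmic reticulum around the invariant chain, which is cut down in endosomes until a last fragment is exchanged for a peptide by the DM dimer, while the DO dimer restrains DM. In lung, B cells, dendritic cells and macrophages carry class II, and alveolar type 2 epithelial cells do so as well. BALB/c mice express both classical pairs, I-A (H2-Aa with H2-Ab1) and I-E (H2-Ea with H2-Eb1).

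Of the class II genes few passed the test, and those that did went in both directions. Of the 9 genes, Ciita and H2-Oa rose with hydrogen, H2-DMb1 fell, and 6 did not pass the threshold, which was a limma p under 0.05 after Benjamini-Hochberg adjustment over the whole array. Over all genes, 25.5% were called higher and 25.9% lower. Of the 17 probe sets, 4 were higher and 1 was lower, where 24.3% and 22.8% of all probe sets were. The median log2 fold change, hydrogen minus control, was 0.10 over the 9 genes and 0.01 over all 17097. Each of the 9 genes had a signal above that of the median probe set. Over the 10808 genes above that signal the median was -0.12, with 1774 called higher and 4101 lower. All hydrogen arrays lay above all control arrays for 6 member probe sets and below them for 2, against 30.9% and 26.4% of all probe sets.

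Probe sets with a strong signal had lower values in the hydrogen group more often than higher ones. Over the whole array, the log2 fold change had a median of 0.07 in the sixth decile of signal, -0.18 in the eighth and -0.13 in the brightest. Only 5.28% of the brightest decile was called higher and 40.9% lower. Of the 7 member probe sets in that decile none was called in either direction by limma, although 1 of them, of H2-Ab1, was below 0.05 before adjustment. The spread of the log2 values (SD over probe sets) was 1.90 to 1.92 on the control arrays and 1.80 to 1.81 on the hydrogen arrays, and its part in the differences was not tested. Scaling changed the counts: with cyclic loess over the 6 arrays 5 class II genes were called higher and 1 lower, where 20.5% and 16.1% of all genes were. With renewed quantile normalisation 6 were called higher and 1 lower, against 22.8% and 14.5% of all genes. The median of the 9 genes became 0.26 and 0.27, against 0.03 and 0.04 over all genes, although Ciita and H2-Oa had smaller values than as deposited under both. With each array centred on its median, every member stood lower than as deposited, with a median of 0.01 against -0.08 over all genes, and 6377 of all probe sets were called higher and 14571 lower in place of 10956 and 10257. Which scaling comes closer to the RNA amounts was not tested.

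**Figure D1:**
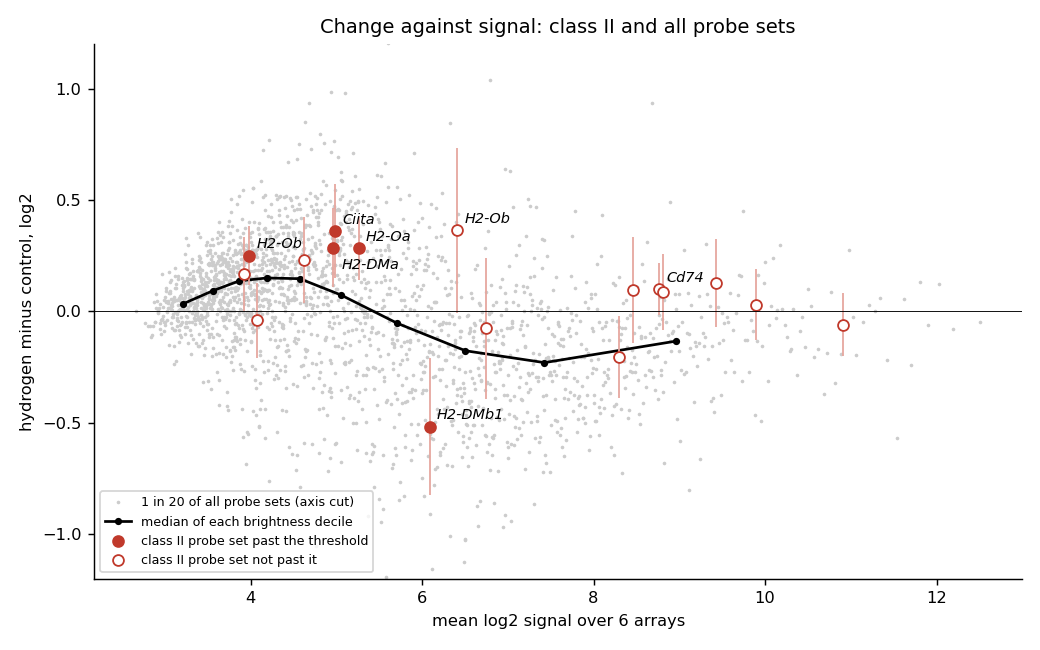
Log2 difference of the group means, hydrogen minus control, against the mean log2 signal of each probe set over 6 arrays. Red points are the 17 class II probe sets with 95% intervals, filled where the adjusted p was under 0.05. Grey points are an even sample of all probe sets by signal, without those beyond the axis, and the black line joins the medians of the signal deciles. The black line passes from 0.15 in the fourth decile to -0.23 in the ninth, while the class II points at the right lie around 0.

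Class II genes share a promoter module in which an X box, bound by the RFX complex, precedes a Y box, an inverted CCAAT motif bound by NF-Y, and CIITA acts on the proteins assembled there. The RefSeq promoters (GRCm38.p6, the genome of C57BL/6J, not of BALB/c) were searched over the 250 bases before each gene's start, on both strands, for the X box letters GNAAC followed within 15 to 40 bases by the Y box letters ATTGG. These letters were chosen with the class II promoters in view. Cd74 was left out by name, and no promoter entry was matched to Ciita or H2-Ab1. Entries for 6 of the 9 genes were searched, and 5 of the 6 had the pair, while H2-DMa had it in neither of its 2 entries. The pair was found in 3.56% of all 32851 promoter entries, ATTGG alone in 33.8% and GNAAC alone in 79.6%. The stretches are shown because the genes that carry the module include H2-Oa, which rose, H2-DMb1, which fell, and H2-Aa, which did neither. Capitals mark the X box letters, then the Y box letters.
H2-Aa, chr17:34287857-34287914, minus strand: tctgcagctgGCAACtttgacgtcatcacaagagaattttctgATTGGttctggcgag
H2-Eb1, chr17:34305766-34305822, plus strand: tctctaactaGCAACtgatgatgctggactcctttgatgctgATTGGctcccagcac
H2-DMb1, chr17:34153087-34153144, plus strand: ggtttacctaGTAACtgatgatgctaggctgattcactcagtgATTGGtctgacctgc
H2-Oa, chr17:34092293-34092350, plus strand: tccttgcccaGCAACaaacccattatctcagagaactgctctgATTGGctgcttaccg
H2-Ob, chr17:34238808-34238862, plus strand: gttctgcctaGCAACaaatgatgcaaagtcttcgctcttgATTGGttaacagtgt

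The spacing between the X and Y letters was 25 to 28 bases in all 5 promoters, with the Y box starting 43 to 61 bases before the gene's start. The X letters read GTAAC in H2-DMb1 and GCAAC in the other 4. The letters TGATG occur in the X2 element of many class II genes and, on either strand, in 34.5% of all promoter entries. On the strand shown they lay between the boxes of H2-Eb1, H2-DMb1 and H2-Ob. Between the boxes of H2-Aa they lay on the opposite strand, where the stretch above reads catca. A match is a description of the letters and was not tested as a binding site.

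The invariant chain gene Cd74, whose product fills the groove of new class II dimers and guides them to endosomes, had the tightest values of the 9 genes. Its log2 values were 8.73, 8.73 and 8.69 in the controls and 8.84, 8.80 and 8.81 in the hydrogen group. Every hydrogen array lay above every control array, yet the gap was small: a log2 fold change of 0.10 (SE 0.05, limma adjusted p = 0.136), or 1.07-fold. It was called higher after cyclic loess (0.27, adjusted p = 0.00467) and after renewed quantile normalisation (0.28, adjusted p = 0.00394).

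The alpha chain gene of I-A, H2-Aa, was the member nearest to no difference. Its brightest probe set read 10.97, 11.02 and 10.84 in the controls and 10.86, 10.91 and 10.88 in the hydrogen group. The groups overlapped, and the log2 fold change of -0.06 had a 95% interval from -0.20 to 0.08 (limma adjusted p = 0.453). A further H2-Aa probe set gave 0.03. The remaining one, with a signal below that of the median probe set (4.80), gave 0.17 (adjusted p = 0.0882), with all hydrogen arrays above all control arrays. After cyclic loess the brightest probe set stood at 0.01.

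The partner beta chain gene H2-Ab1 was measured by 3 probe sets that differed in direction. The brightest, named as shared with other transcripts, read 8.85, 8.83 and 8.62 in the controls and 8.86, 8.79 and 8.91 in the hydrogen group. That difference of 0.09 had a 95% interval from -0.08 to 0.26 (limma adjusted p = 0.365), and it was 0.013 without the third control array. A probe set of a kind that can cross-hybridise gave 0.10 (adjusted p = 0.471). The probe set that is not shared by its name read 8.52, 8.33 and 8.35 in the controls and 8.30, 8.06 and 8.23 in the hydrogen group, without overlap, a difference of -0.20 (SE 0.08, adjusted p = 0.0678). The direction of H2-Ab1 depended on the probe set, and the difference was 0.26 for the brightest one after cyclic loess (adjusted p = 0.0256).

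The beta chain gene of I-E, H2-Eb1, read 9.40, 9.52 and 9.18 in the controls and 9.54, 9.49 and 9.45 in the hydrogen group. The second control array lay above 2 of the hydrogen arrays and the first below all of them, and the log2 fold change of 0.13 had a 95% interval from -0.07 to 0.32 (limma adjusted p = 0.255). It was 0.03 without the third control array and 0.20 without the second, and neither passed. It passed the threshold after cyclic loess (0.27, adjusted p = 0.0404). Its alpha partner H2-Ea is not among the 9 genes and is looked at here after its values were seen, since RefSeq lists it as a pseudogene in C57BL/6J. One of its 3 probe sets rose, from 9.29, 9.15 and 8.98 to 9.70, 9.58 and 9.71 (log2 fold change 0.52, SE 0.08, limma adjusted p = 0.00182). The others gave 0.16, for the brightest of the 3, and 0.14, and neither passed (adjusted p = 0.103 and 0.114). The brightest passed after cyclic loess (0.26, adjusted p = 0.0253) but not after renewed quantile normalisation (0.23, adjusted p = 0.0536).

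**Figure D2:**
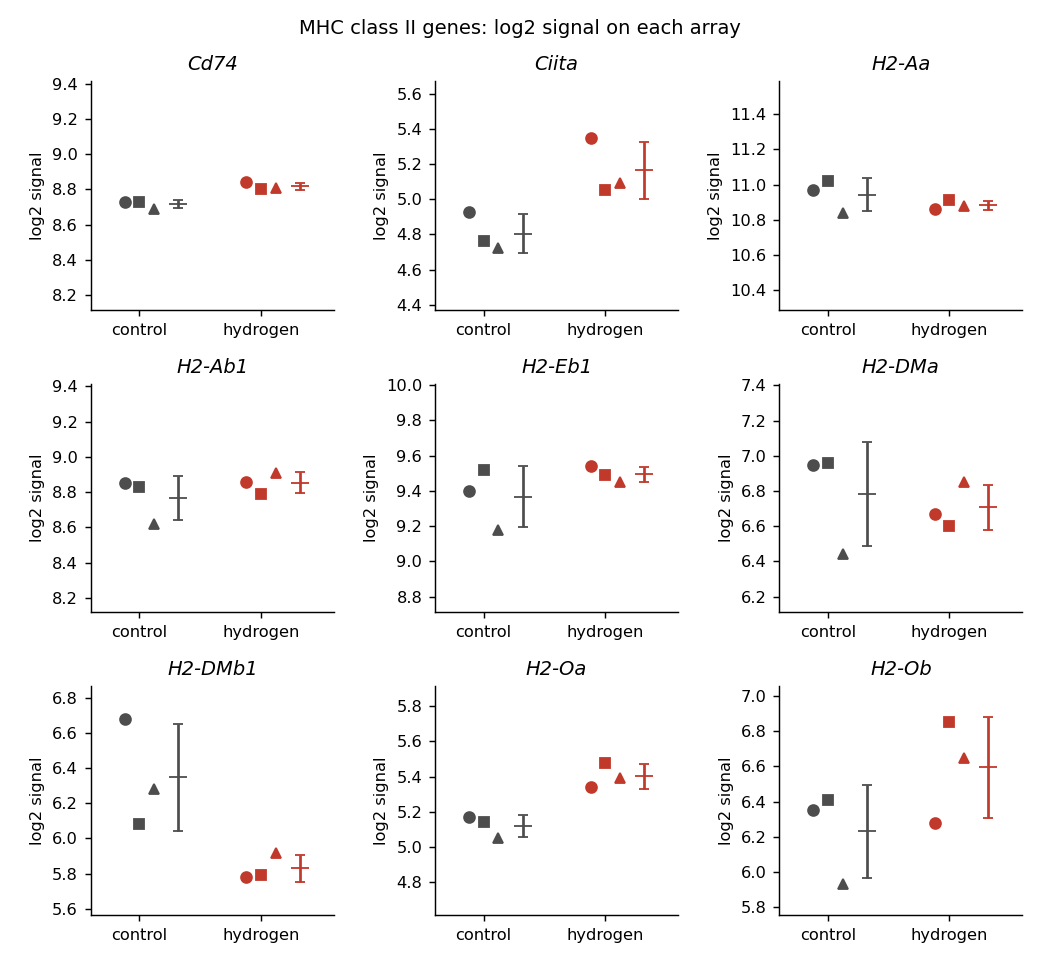
Log2 signal of the brightest probe set of each of the 9 class II genes on each of the 6 arrays. Circles, squares and triangles are replicates 1, 2 and 3, bars give the mean and SD of 3 arrays, and every panel spans the same range of log2 units. H2-DMb1 is the only gene whose hydrogen arrays all lie below its control arrays, and Cd74, Ciita and H2-Oa are those with all hydrogen arrays above.

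The DM dimer releases the invariant chain fragment and edits the peptides that class II retains, and its beta chain gene H2-DMb1 showed the clearest fall. Its log2 values were 6.68, 6.08 and 6.28 in the controls and 5.78, 5.79 and 5.92 in the hydrogen group. All hydrogen arrays lay below all control arrays, and the spread was far wider among the controls (SD 0.31, n = 3) than among the hydrogen mice (SD 0.08, n = 3). The log2 fold change was -0.52 (SE 0.13, limma adjusted p = 0.0142), a level 0.699 times that of the controls. The signal decile that holds it had a median of -0.05. The call held under each scaling and each left-out array, with -0.42 after cyclic loess (adjusted p = 0.0373) and -0.40 after renewed quantile normalisation (adjusted p = 0.0342). Leaving out the first control array gave the smallest fall, -0.35 (adjusted p = 0.016).

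For the alpha chain gene H2-DMa no difference was detectable. Its brightest probe set read 6.95, 6.96 and 6.44 in the controls and 6.67, 6.60 and 6.85 in the hydrogen group. The third control array was the lowest of all 6, and the difference of -0.08 had a wide 95% interval, from -0.39 to 0.24 (limma adjusted p = 0.671). Without that array the log2 fold change was -0.25 and passed the threshold (adjusted p = 0.0456). On the log2 scale H2-DMb1 minus H2-DMa was -0.27, -0.88 and -0.16 on the control arrays and -0.89, -0.81 and -0.93 on the hydrogen arrays. These differences overlapped between the groups at the second control array. The second probe set, which can cross-hybridise and has a weaker signal, rose from 4.94, 4.72 and 4.78 to 5.17, 5.14 and 4.99 (0.29, SE 0.08, adjusted p = 0.0162). That call ended after cyclic loess (0.19, adjusted p = 0.0865).

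H2-DMb1 has a close relative, H2-DMb2, which also encodes a DM beta chain. It is not among the 9 genes and was chosen for description after its values were seen. The probe set whose name marks no sharing read 4.75, 4.51 and 4.37 in the controls and 5.15, 5.42 and 5.29 in the hydrogen group. This was a rise of 0.74 (SE 0.11, limma adjusted p = 0.00112), which was 0.64 after cyclic loess. A probe set of H2-DMb2 that is named as shared gave 0.12 (adjusted p = 0.388). It was called higher after cyclic loess (0.31, adjusted p = 0.0423) and after renewed quantile normalisation (0.34, adjusted p = 0.0264). The probes that the 2 beta chain genes may share were not compared, since probe sequences were not used here.

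The DO dimer binds DM and holds it back, and both of its genes had higher values in the hydrogen group. H2-Oa read 5.17, 5.14 and 5.05 in the controls and 5.34, 5.48 and 5.39 in the hydrogen group, without overlap. The log2 fold change was 0.28 (SE 0.06, limma adjusted p = 0.00679), or 1.22-fold, in a signal decile with a median of 0.07. The call held under each scaling and each left-out array, at 0.24 after cyclic loess (adjusted p = 0.0183).

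H2-Ob had 2 probe sets. The brighter read 6.35, 6.41 and 5.93 in the controls and 6.28, 6.85 and 6.65 in the hydrogen group. The first hydrogen array lay inside the control range, and the difference of 0.36 missed the threshold (95% interval -0.01 to 0.73, limma adjusted p = 0.0964). It passed after cyclic loess (0.51, adjusted p = 0.0388) and without that first hydrogen array (0.52, adjusted p = 0.0267), and it was 0.21 without the third control array and 0.24 without the second hydrogen array (adjusted p = 0.278 and 0.289). The dimmer probe set, below the median signal, rose from 3.93, 3.83 and 3.83 to 4.14, 4.06 and 4.14 (0.25, SE 0.06, adjusted p = 0.00837). Its call ended after cyclic loess (0.13, adjusted p = 0.131).

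Ciita, the coactivator that switches class II genes on, was measured near the median signal. Its brightest probe set read 4.93, 4.76 and 4.72 in the controls and 5.35, 5.05 and 5.09 in the hydrogen group. No array overlapped, and the log2 fold change was 0.36 (SE 0.09, limma adjusted p = 0.0135), or 1.28-fold. The first hydrogen array was the highest, and without it the value was 0.27 (adjusted p = 0.0348). The other 2 probe sets lay below the median signal and gave 0.23 (adjusted p = 0.0521) and -0.04 (adjusted p = 0.679). The call ended after cyclic loess (0.27, adjusted p = 0.0558) and with the mean of all Ciita probe sets (0.18, adjusted p = 0.0601). It held after renewed quantile normalisation (0.31, adjusted p = 0.0356).

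**Figure D3:**
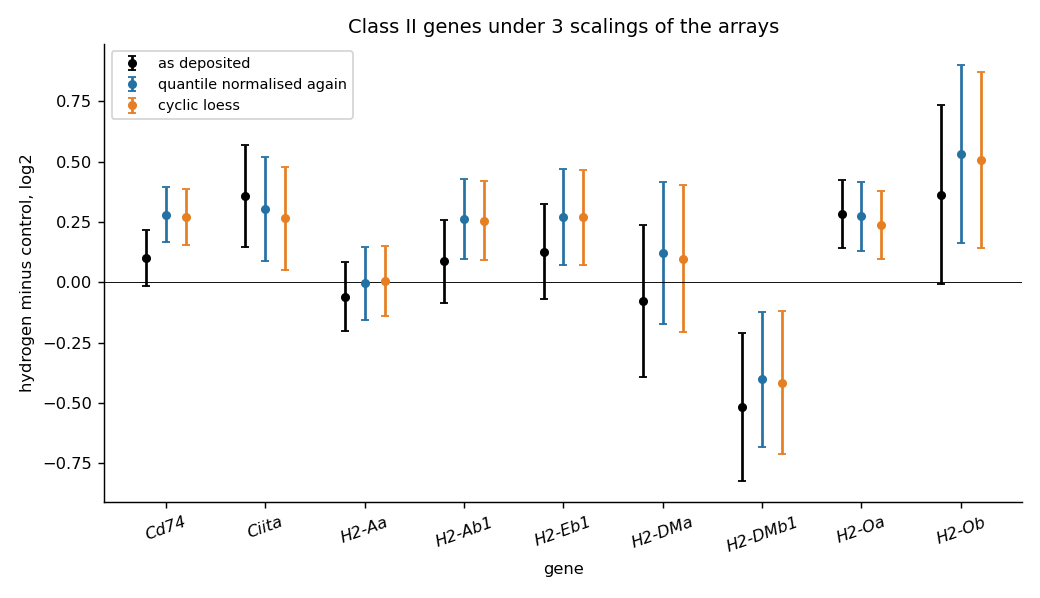
Log2 fold change, hydrogen minus control, of each class II gene with its 95% interval from limma (3 arrays per group), on the values as deposited, after quantile normalising again and after cyclic loess. H2-DMb1 lies below 0 and H2-Oa above 0 under all 3 scalings, whereas Cd74, H2-Ab1 and H2-Eb1 move from 0.09 to 0.13 as deposited to 0.26 to 0.28 after either rescaling.

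Among the controls, 1 array stood lower for most class II genes. The third control array had the lowest of the control values for 8 of the 9 genes, all but H2-DMb1, and for 13 of the 17 probe sets, while it was the lowest for 14415 of all 45037. The median of the 9 genes, taken against the control mean, was 0.08, 0.06 and -0.10 on the control arrays and 0.09, 0.08 and 0.09 on the hydrogen arrays. The hydrogen arrays were thus within 0.01 of each other and close to the first and second control arrays. Without the third control array the median log2 fold change of the 9 genes was 0.03.

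By likeness of pattern over the 6 arrays, the nearest of 10799 other genes above the median signal were Npm1, Colgalt1, Galnt11, Nmd3 and BC064078. Their values, centred on their own means, lay within a root mean square difference of 0.02 to 0.03 log2 units of the mean class II profile. These genes had log2 fold changes of 0.04 to 0.07, and none passed the test (limma adjusted p = 0.405 to 0.694). The class II mean profile was 0.07, 0.0044 and -0.18 on the control arrays and 0.01, 0.04 and 0.06 on the hydrogen arrays, with its low point on control replicate 3, which the genes most like it share.

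The transcription factors that meet at class II promoters had lower values in the hydrogen group. Of 9 measured genes 6 fell and none rose, with a median log2 fold change of -0.27. Those with the smallest p were the histone acetyltransferase gene Crebbp (-0.48, SE 0.08, limma adjusted p = 0.00187), the X box factor gene Rfx5 (-0.37, adjusted p = 0.00321) and the NF-Y subunit gene Nfyc (-0.31, adjusted p = 0.00395). All 9 had a signal above the median, where 4101 of 10808 genes were called lower. After cyclic loess 2 of 9 were called lower, against 16.1% of all genes, and the median was -0.11. Crebbp kept its call there (-0.29, adjusted p = 0.0186), and Rfx5 (-0.17, adjusted p = 0.0784) and Nfyc (-0.11, adjusted p = 0.189) did not.

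Genes of interferon gamma signalling, the main inducer of Ciita outside antigen-presenting cells, showed 7 falls and 1 rise among 14, with a median of -0.17. Of the 14 genes 12 lay above the median signal, where 4101 of 10808 genes were called lower. The interferon-induced GTPase gene Gbp2 (-0.62, SE 0.08, limma adjusted p = 0.000947) and the transcription factor gene Irf2 (-0.55, adjusted p = 0.00171) fell. Both were called after cyclic loess too (-0.42 and -0.35), Gbp2 by a probe set of a kind that can cross-hybridise. The kinase gene Jak2 (-0.32, adjusted p = 0.00208) fell and the inhibitor gene Socs1 rose (0.26, adjusted p = 0.00903), but neither call held after cyclic loess (adjusted p = 0.0951 and 0.104). The whole list then had 2 falls and no rise, with a median of -0.07, where 16.1% of all genes were called lower and 20.5% higher.

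Of 14 genes for the processing of antigen and invariant chain and for class II traffic, 5 rose and 1 fell, with a median of 0.07. The shares of all genes were 25.5% and 25.9%. The cathepsin gene Ctsf rose by a probe set of a kind that can cross-hybridise (0.46, SE 0.10, limma adjusted p = 0.00731). The cathepsin gene Ctsz (0.24, adjusted p = 0.0154) and the adaptor subunit gene Ap1b1 (0.23, adjusted p = 0.0315) rose too. The one that fell was Sppl2a (-0.36, adjusted p = 0.0013), the intramembrane protease that removes the last membrane stub of the invariant chain. All 4 calls held after cyclic loess, where 7 of 14 were called higher and 1 lower, against 20.5% and 16.1% of all genes.

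Of 12 genes for the contact between T cells and antigen-presenting cells, from both sides of it, 5 rose and none fell, with a median of 0.11. The 5 were the T cell genes Cd4, Icos, Ctla4 and Lag3 and the ligand gene Icosl of the presenting side (0.19, limma adjusted p = 0.0414). Over all genes 25.5% were called higher. Of the 12 genes 6 lay above the median signal, Ctla4 and Lag3 not among them. At or below that signal 2579 of 6289 genes were called higher. The coreceptor gene Cd4, which binds class II itself, rose from 4.79 ± 0.03 to 5.12 ± 0.05 (SD, n = 3 per group; limma adjusted p = 0.00187). The T cell receptor-type genes Icos, which is costimulatory, and Ctla4, which is inhibitory, rose as well (0.47, adjusted p = 0.0047, and 0.41, adjusted p = 0.00462). Both, like Cd4, were called after cyclic loess. The costimulatory genes of the presenting side Cd80 (0.02), Cd86 (0.10) and Cd40 (0.11) did not pass.

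The class I pathway, which presents peptides from inside the cell, showed 2 rises and 3 falls among 16 measured genes, with a median of -0.04. The shares of all genes were 25.5% and 25.9%. The heavy chain gene H2-D1 rose (0.27, SE 0.06, limma adjusted p = 0.00773), by a probe set that can cross-hybridise with related heavy chains. The chaperone gene Pdia3 rose at a low signal (0.31, adjusted p = 0.00363). The peptide trimming gene Erap1 (-0.33, adjusted p = 0.00967), Tapbpl (-0.21, adjusted p = 0.0186) and the immunoproteasome gene Psmb9 (-0.29, adjusted p = 0.024) fell. After cyclic loess 3 of 16 were called higher and none lower, against 20.5% and 16.1% of all genes. The median was then 0.08, and Pdia3, Erap1, Tapbpl and Psmb9 lost their calls (limma adjusted p = 0.0522 to 0.693).

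**Figure D4:**
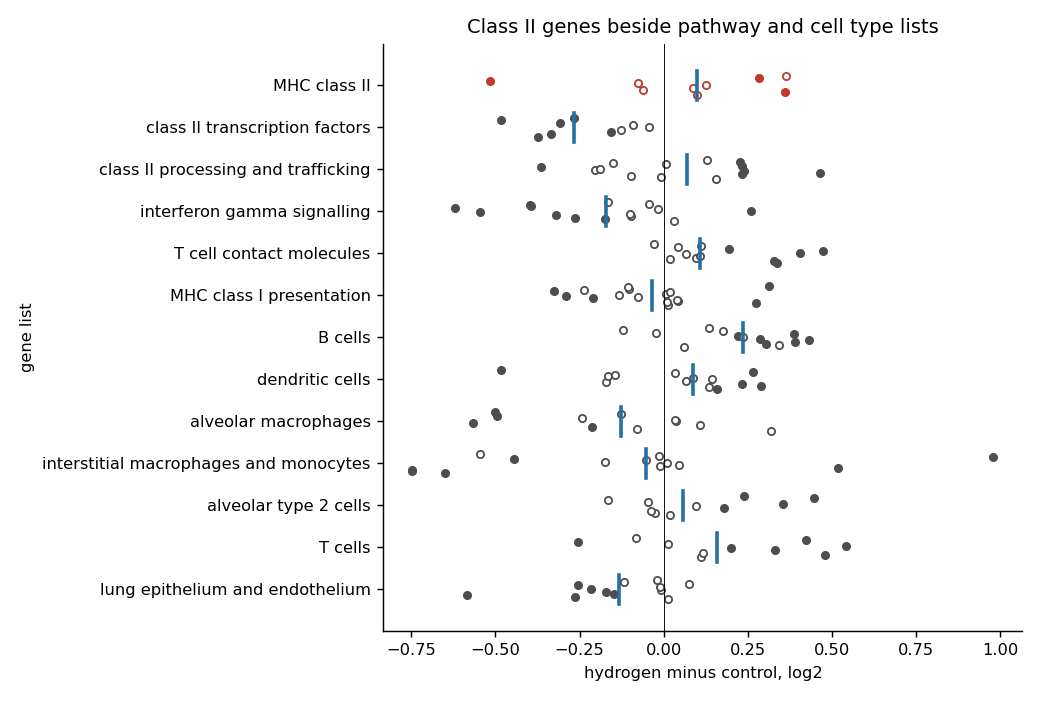
Log2 fold change, hydrogen minus control, of the class II genes (red) and of the genes of each pathway or cell type list (grey), filled where the limma adjusted p was under 0.05. Blue bars are list medians, and the cardiac muscle list is left out because its values fall outside the axis. The class II median of 0.10 lies between that of the B cell list (0.24) and that of the class II transcription factors (-0.27).

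Markers of the cells that carry class II moved in different directions. Over all genes 25.5% were called higher and 25.9% lower. B cell markers rose in 6 of 13 cases and fell in none (median 0.24), with Blk (0.43) and Pax5 (0.39) as the largest changes. The list's mean log2 level was 5.45 to 5.64 on the control arrays and 5.66 to 5.89 on the hydrogen arrays. Blk and Pax5 lay below the median signal, where 2579 of 6289 genes were called higher. Of the 13 markers 10 lay above the median signal. After cyclic loess 6 of the 13 were called higher, against 20.5% of all genes. Dendritic cell markers showed 4 rises and 1 fall among 13 (median 0.09, mean level 5.67 to 5.75 against 5.74 to 5.78), the largest changes being Snx22 (-0.48) and Xcr1 (0.29). Snx22 was read by a probe set of a kind that can cross-hybridise, and Xcr1 lay below the median signal. After cyclic loess 2 of the 13 were called higher and 1 lower, against 20.5% and 16.1% of all genes. Xcr1 lost its call there (0.17, limma adjusted p = 0.0633). Alveolar macrophage markers showed no rise and 4 falls among 11 (median -0.13, mean level 7.23 to 7.51 against 7.12 to 7.27), led by Car4 (-0.57) and Plet1 (-0.50), genes that other lung cells express as well. Of all genes above the median signal, 4101 of 10808 were called lower, and after cyclic loess the alveolar macrophage list had a median of 0.03, with 3 of 11 lower. Markers of interstitial macrophages and monocytes showed 2 rises and 4 falls among 13 (median -0.05, mean level 6.66 to 6.76 against 6.51 to 6.67), with the Fc receptor gene Fcgr1 (0.98) and the complement gene C1qc (-0.75) at the ends. Alveolar type 2 markers showed 4 rises and no fall among 10 (median 0.06, mean level 10.2 to 10.3 against 10.3 to 10.4), with Cxcl15 (0.45) and Etv5 (0.35) as the largest. The part of these cells in the class II values was not tested, and in whole lung fewer cells of a type cannot be told apart from less RNA per cell.

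T cell markers rose in 5 of 10 cases and fell in 1 (median 0.16, mean level 5.06 to 5.25 on the control arrays against 5.27 to 5.37), with Cd8a (0.54) and Cd3d (0.48) as the largest changes. Of all genes 25.5% were called higher and 25.9% lower. Markers of lung were measured well: 12 of 12 genes of airway, alveolar and vascular cells lay above the median signal. Of these, 6 were lower in the hydrogen group and none higher, with Foxj1 (-0.58) and Scgb3a2 (-0.26) as the largest changes. After cyclic loess 4 of the 12 were lower, against 16.1% of all genes. Cardiac muscle markers were also present and differed far more than class II did: 13 of 16 fell and 3 rose (median -1.76, mean level 7.90 to 8.13 on the control arrays, and down to 5.46 on a hydrogen array), with Nppa (-4.33) and Ckmt2 (-2.77) as the largest. Of 85 control probe sets that match no mouse transcript, 15 were higher and 27 lower. The labels give no batch, so a batch and the hydrogen exposure cannot be told apart.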

How the data were processed

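Lung RNA of 6 mice was hybridised to 1 array each (MG-430 PM strips, per the labels' protocols). The deposited values are log2 probe set values made by the authors with RMA and Affymetrix Expression Console, per the submitters' processing notes. Their versions are not given in the sources, nor is it stated if RMA was run on the 6 arrays together. After 104 control probe sets were set aside, 45037 entered a single linear model fit (R 4.3.3, limma 3.58.1, its functions lmFit and eBayes) of hydrogen minus control, without filtering and with Benjamini-Hochberg adjustment over all of them. By the platform annotation 28898 probe sets have 1 gene, 551 have several and 15588 have no gene. Intervals are limma's 95% intervals, and the number of arrays limits the precision. The series' design counts the mice, so each array is a replicate.

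The members, the lists (163 of 183 entries measured) and the rule for named genes were chosen with earlier results of these data known. The rule took all members, 3 genes per direction with the smallest p among those past the threshold of each pathway list, the 2 largest changes of each cell type list and the 5 genes most like the members. H2-Ea and H2-DMb2 fall outside it. Promoter sequences are RefSeq's (GRCm38.p6). limma was tested on simulated data. Alternatives were a replicate block, 3 scalings, another prior variance, array weights, filters on dim and on shared probe sets, the mean of all probe sets, and each array left out. List counts under the scalings were added after seeing the data.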

Additional observations from a re-analysis of the deposited data

How the results depend on the processing

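The count of class II genes called higher was 2 as deposited, 6 with quantile normalisation repeated and 5 with cyclic loess, while those of all genes were 4353, 3900 and 3509. The count of member probe sets higher went from 4 to 8 after renewed quantile normalisation, and that of all probe sets from 10956 to 8442. The median log2 fold change of the 9 genes was 0.27 and 0.26 under these scalings and 0.01 with arrays centred on their median. Member probe sets called lower numbered 2 in place of 1 with that centring, under robust fitting with a trend, and when a replicate block was added, and 1 to 2 when an array was left out, as did genes called lower. The replicate numbers did not pair the mice: same-numbered arrays correlated at 0.08, 0.03 and -0.11 in their deviations, and 2 of 6 arrays correlated best with their own number. With the replicate block 5 member probe sets were higher. The genes whose direction turned were not past the threshold as deposited or when turned: H2-Aa stood at 0.0070 after cyclic loess and 0.046 with the mean of its probe sets, H2-Ab1 at -0.0033 with median centring, -0.20 without shared probe sets and -0.0067 with the mean, and H2-DMa at 0.12 after renewed quantile normalisation, 0.10 after cyclic loess and 0.11 with the mean. H2-DMa ran from -0.25 to 0.012 with an array left out. Without shared probe sets H2-Aa had no value. The cause of these shifts was not tested. Low signal limits the Ciita probe sets and the dimmer ones of H2-Aa and H2-Ob.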
